A study of Capra hircus with 6 samples.

Results

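The 10 genes described here mark astrocytes, and they were followed in the goat's medio-basal hypothalamus: GFAP, AQP4, S100B, SLC1A2, SLC1A3, ALDH1L1, GLUL, SOX9, NDRG2 and ALDOC. They were chosen by symbol, as genes of the astrocyte filament, water channel, glutamate uptake, metabolism and identity. No measured value enters that rule, but the genes were picked with earlier results of these data known. All 10 symbols were found among the 28907 rows of the gene count table, and all 10 were among the 16756 genes with enough counts to be tested. This tissue includes the arcuate nucleus and the median eminence, and it came from adult goats (Capra hircus) of the Alpine breed. The follicular group (5 goats) was sampled in January, in the part of the cycle that leads to ovulation, and the anestrus group (8 goats) in mid-May, when cycles have stopped for the season. A further January group, in the luteal phase (5 goats), was not analysed here. RNA was extracted goat by goat, and each condition was sequenced as 2 random equimolar mixes, called pools here. The number of goats in a pool, and whether a goat entered both pools of its condition, is not given in the sources used here, so the p-values measure the spread between pools and not between goats. Season and ovarian state changed together between the groups and cannot be told apart.

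Astrocytes take up glutamate and potassium that neurons release, carry water across their endfeet on blood vessels, and return glutamine to neurons. In the median eminence, astrocytes and tanycytes, the elongated glia that line the floor of the third ventricle, surround the terminals that release gonadotropin-releasing hormone (GnRH), and the contact between glia and terminals is known to be remodelled over the reproductive cycle and between seasons. GFAP, an intermediate filament protein, is the classical gene by which such remodelling is followed, and it is also made by some tanycytes.

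The pools held 25292678 and 17090623 counted reads in the follicular phase and 14553821 and 17910056 in anestrus. Levels are given as CPM, the reads of a gene per 1000000 reads of its library, after scaling by the trimmed mean of M-values (TMM), and a log2 fold change is follicular minus anestrus, followed by its standard error. A gene was called where the adjusted p of edgeR's quasi-likelihood test, with Benjamini-Hochberg adjustment over all 16756 genes, was under 0.05. Over all genes tested, 0.0119% were called higher in the follicular phase (2 genes) and 0.191% lower (32 genes). At an unadjusted p under 0.05 (edgeR) the shares were 4.26% and 4.29%, to be set beside each such count below. The Wald test of DESeq2, a second tool, called 0.257% higher and 0.597% lower at an adjusted p under 0.05. Those shares belong beside each DESeq2 call below. Markers of anterior pituitary and pars tuberalis summed to 5695 and 4531 CPM in the follicular pools and to 14963 and 11574 CPM in anestrus, with CGA and TSHB, subunits of thyrotropin, called lower in the follicular phase (2 of 10 tested, median -0.95). The part of this tissue in the results below was not tested.

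GFAP was 2.01-fold higher in the follicular phase than in anestrus. Its level was 4804 CPM in follicular pool 1 and 4829.8 CPM in follicular pool 2, against 2329 CPM in anestrus pool 1 and 2466 CPM in anestrus pool 2. The groups lay far apart beside the spread within them: the lower follicular pool was 1.95-fold above the higher anestrus pool, while the pools of a group differed 1.01-fold and 1.06-fold. These levels rest on 122063 and 83123 reads against 33223 and 44424, or 0.483% and 0.486% of all counts against 0.228% and 0.248%. On the log2 scale the difference was 1.01 ± 0.15 (95% interval 0.68 to 1.33, adjusted p = 0.0316, edgeR). GFAP was the 1 of 10 members called, and the other 9 did not pass. Of all genes tested 0.0119% were called higher, which is 2 genes with GFAP among them. The size of the GFAP difference ranged from 0.96 to 1.09 over 13 other settings, and the call was lost without follicular pool 1 (log2 fold change 1.03, adjusted p = 0.478, edgeR), a fit in which 4 genes were called in all. In bulk tissue, a smaller number of cells of a type and less RNA per cell cannot be told apart.

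**Figure D1:**
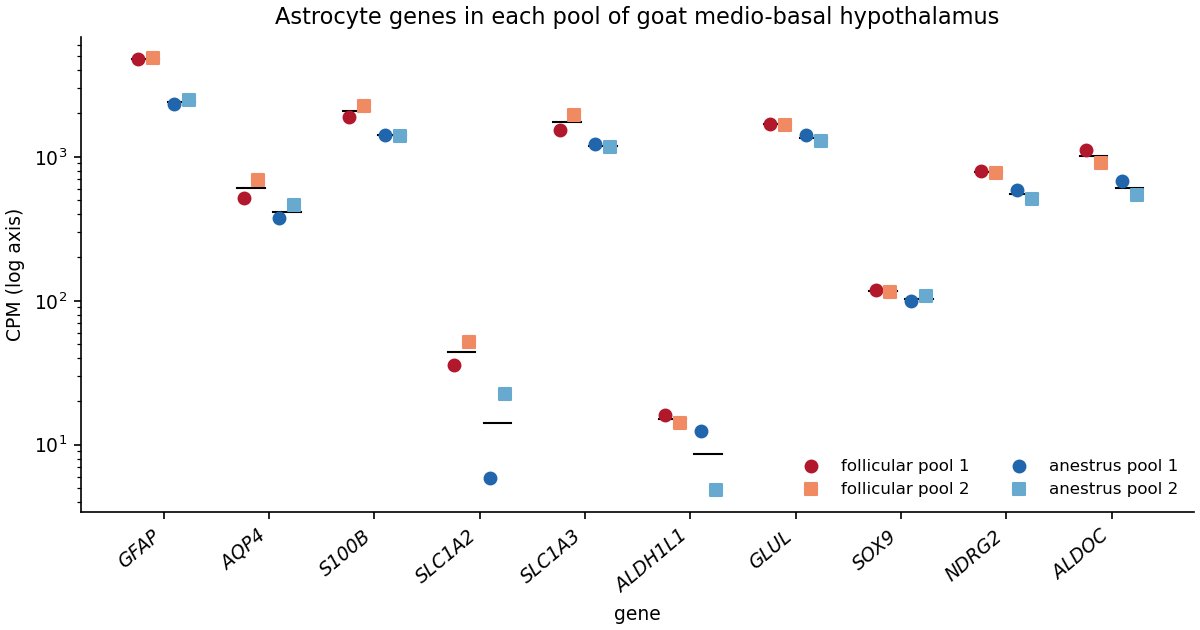
CPM (log axis) of the 10 astrocyte genes in each of the 4 pools; red and orange points are follicular pools, blue points are anestrus pools, and black bars are group means. GFAP shows the clearest separation, at 4804 and 4829.8 against 2329 and 2466 CPM, whereas the anestrus pools of SLC1A2 and ALDH1L1 lie far from each other.

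Of 14 intermediate filament genes tested, GFAP was the 1 called. Of the 14, 10 had a positive log2 fold change, 1 had an unadjusted p under 0.05 (edgeR), and the median was 0.11, beside a median of 0.00 over all genes tested. The filament median depended on single pools, at 0.04 when follicular pool 2 was left out, 0.03 when anestrus pool 2 was, and 0.21 when anestrus pool 1 was. VIM encodes vimentin, the filament that GFAP joins in astrocytes and that tanycytes make in quantity. It was lower in both follicular pools (559 and 537 CPM) than in either anestrus pool (733 and 583 CPM). The difference of -0.26 ± 0.17 on the log2 scale did not pass (adjusted p = 0.741, edgeR); VIM was singled out after its values were seen. The count of GFAP over that of VIM, a ratio that does not depend on library scaling, was 8.59 and 9.001 in the follicular pools and 3.18 and 4.23 in anestrus. NES (nestin) was at 40.8 and 41.2 CPM against 40.2 and 40.4, and SYNM (synemin), also a filament partner in astrocytes, at 73.6 and 68.0 against 59.9 and 64.6. NEFM, a neurofilament subunit of axons, had the next smallest p in the list, at 396 and 453 CPM against 385 and 269 (log2 fold change 0.38 ± 0.19, adjusted p = 0.655, edgeR).

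AQP4 forms the water channel of the astrocyte endfoot. Follicular pools 1 and 2 held 521 and 691 CPM of it, and anestrus pools 1 and 2 held 374 and 460.4 CPM. Both follicular pools were above both anestrus pools, but the nearest pools differed 1.13-fold and the follicular pools themselves 1.33-fold. AQP4 was not called (log2 fold change 0.54 ± 0.19, adjusted p = 0.413, edgeR), although its own 95% interval of 0.13 to 0.95 left out 0. It was 0.32 without follicular pool 2 and 0.74 without follicular pool 1. Without anestrus pool 2 it was also 0.74. Among the other aquaporins, AQP1 had a log2 fold change of -0.02 ± 0.19, AQP3 of -0.17 ± 0.34 and AQP11 of -0.25 ± 0.55, while AQP5 and AQP9 had too few reads to be tested.

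Of 14 genes of the endfoot and of its water and potassium handling, AQP4 among them, all had a positive log2 fold change and 0 were called in either direction by edgeR, DESeq2 or limma-voom. At an unadjusted p under 0.05 there were 4, all higher in the follicular phase, where 4.26% of all genes tested were. The median log2 fold change was 0.31. HEPACAM, an adhesion protein of astrocyte junctions, was at 231 and 223 CPM against 169 and 158 (log2 fold change 0.47 ± 0.15). KCNJ16, a subunit of inwardly rectifying potassium channels, was at 14.9 and 17.7 CPM against 9.74 and 8.66 (0.82 ± 0.28). Neither passed, with adjusted p of 0.371 and 0.4004 (edgeR). For AQP4 and these 2 genes the pools of the groups did not overlap, which was so for 8 of the 14 in the direction of a higher follicular level and for 17.6% of all genes tested.

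SLC1A3 and SLC1A2 encode GLAST and GLT-1, the transporters by which astrocytes clear glutamate from the synapse. SLC1A3 measured 1534 and 1942 CPM in the follicular pools against 1220.1 and 1172 CPM in anestrus. The follicular pools were the higher ones, 1.26-fold at the nearest, and differed 1.27-fold from each other. Its log2 fold change was 0.54 ± 0.17 (95% interval 0.17 to 0.90, adjusted p = 0.335, edgeR).

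SLC1A2 had few reads, 910 and 891 in the follicular pools and 84 and 406 in anestrus. Whether the gene models used for counting cover the whole transcripts of SLC1A2 and of ALDH1L1, the other member with few reads, was not checked, so their levels and the ratios made from them may miss reads. These gave 35.8 and 51.8 CPM against 5.89 and 22.5 CPM. The anestrus pools differed 3.83-fold, and their counting intervals of 4.70 to 7.29 and 20.4 to 24.8 CPM (95%, Poisson, for counting error alone) lay apart. Its log2 fold change of 1.61 ± 0.64 was the largest among the 10 genes, but its 95% interval of -0.03 to 3.25 was also the widest and the gene did not pass (adjusted p = 0.595, edgeR). Leaving out anestrus pool 1 gave 0.95, and leaving out anestrus pool 2 gave 2.94. Neither of these fits holds the spread between the anestrus pools, and the size of the SLC1A2 difference depended on which anestrus pool was kept. SLC1A2 over SLC1A3 was 0.0233 and 0.0267 in the follicular pools and 0.00483 and 0.0192 in anestrus.

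The other transporters of the family are known mainly from neurons and the retina. SLC1A1, the neuronal carrier EAAC1, was at 51.2 and 57.8 CPM against 42.1 and 41.6 (log2 fold change 0.38 ± 0.18). SLC1A6, known from Purkinje cells, was at 31.1 and 23.4 CPM against 20.5 and 17.8 (0.51 ± 0.24), and SLC1A7, of the retina, at 0.79 and 1.16 against 0.63 and 1.94. None of the 5 transporter genes passed, and the neuronal SLC1A1 had the same sign as the astrocytic pair.

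GLUL, glutamine synthetase, turns the glutamate that astrocytes take up into glutamine, and is also made by oligodendrocytes. Its level was 1703 and 1665 CPM in the follicular pools and 1418 and 1293 CPM in anestrus. The groups did not overlap, but the difference was small, 1.24-fold (log2 fold change 0.31 ± 0.15, 95% interval -0.02 to 0.64, adjusted p = 0.619, edgeR). Of 14 tested genes of the glutamate and glutamine cycle, 3 of them members described above, all had a positive log2 fold change. None was called by edgeR, DESeq2 or limma-voom, and 3 had an unadjusted p under 0.05, all higher in the follicular phase: SLC1A3 and the neuronal SLC17A7 and SLC17A6. Over all genes tested, 4.26% were higher at such a p. The median of the 14 genes was 0.36. SLC17A7, the vesicular glutamate transporter VGLUT1, had the smallest p, at 5.51 and 3.95 CPM against 1.54 and 1.17 (log2 fold change 1.81 ± 0.43, adjusted p = 0.218, edgeR).

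ALDOC, the aldolase isoform of astrocytes, had the smallest p of the members after GFAP. The follicular pools held 1109 and 912 CPM (pools 1 and 2), against 679.5 and 540.5 CPM in the anestrus pools. No pools overlapped, with 1.34-fold between the nearest pools of the groups and 1.22-fold and 1.26-fold between the pools within them. The difference was 0.73 ± 0.18 on the log2 scale (95% interval 0.34 to 1.12, adjusted p = 0.223, edgeR). ALDOC was called by DESeq2's Wald test (adjusted p = 0.0318), without the filter on low counts (0.00704, edgeR), and without anestrus pool 1 or 2 (0.000245 and 0.0449, edgeR). ALDOA, the aldolase of most tissues, was at 687 and 468 CPM against 557 and 410, so that its groups overlapped (log2 fold change 0.26 ± 0.22). ALDOC over ALDOA was 1.61 and 1.95 in the follicular pools and 1.22 and 1.32 in anestrus.

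Of 15 genes of glycogen and lactate metabolism, ALDOC and ALDOA included, 0 were called by edgeR or limma-voom and 1 by DESeq2, which was ALDOC. The median log2 fold change was 0.15, and 2 genes had an unadjusted p under 0.05, ALDOC and PYGB, the glycogen phosphorylase of brain (0.47 ± 0.19, adjusted p = 0.526, edgeR).

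S100B is a calcium-binding protein of astrocytes that oligodendrocytes and the folliculostellate cells of the pituitary also make. Both follicular pools (1899 and 2246 CPM) were above both anestrus pools (1426 and 1394 CPM), with 1.33-fold between the nearest. S100B had a log2 fold change of 0.56 ± 0.16 (95% interval 0.21 to 0.90, adjusted p = 0.299, edgeR) and was not called in 13 other settings. The other S100 genes did not share a direction. S100A1 was at 153 and 189 CPM against 149 and 108 (0.41 ± 0.20), whereas S100A4, S100A10 and S100A11 were lower in both follicular pools than in either anestrus pool, with log2 fold changes of -0.48 ± 0.24, -0.37 ± 0.19 and -0.41 ± 0.17. S100A13 had -0.14 ± 0.20 and S100A16 0.07 ± 0.18, and S100A6 is listed at 0 in all 4 pools. None of the 7 S100 genes tested was called by edgeR, DESeq2 or limma-voom, and at an unadjusted p under 0.05 there was 1 in each direction, S100B and S100A11.

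NDRG2, a stress-response protein that is abundant in astrocytes, was at 793 and 770 CPM in the follicular pools and 593 and 511 CPM in anestrus. The follicular pools differed 1.03-fold and lay at least 1.30-fold above the anestrus pools. Its log2 fold change was 0.50 ± 0.16 (95% interval 0.16 to 0.85, adjusted p = 0.346, edgeR), and 0.61 without anestrus pool 1. Its relatives from other cells did not pass either. NDRG4, of neurons, had a log2 fold change of 0.47 ± 0.16, NDRG1, of oligodendrocytes among other cells, 0.37 ± 0.17, and NDRG3 0.11 ± 0.16. NDRG2 over NDRG4 overlapped between the groups (0.934 and 0.906 against 0.883 and 0.923), so the astrocytic and the neuronal gene differed by about the same factor.

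ALDH1L1, the folate enzyme 10-formyltetrahydrofolate dehydrogenase that is used as a general marker of astrocytes, had few reads. From 411, 243, 179 and 87 reads its levels were 16.2 and 14.1 CPM for the follicular pools, and 12.5 CPM for anestrus pool 1 and 4.83 CPM for anestrus pool 2. The anestrus pools differed 2.60-fold and pool 1 was near the follicular level, 1.13-fold below the nearer follicular pool. Its log2 fold change was 0.81 ± 0.41 (95% interval -0.12 to 1.75, adjusted p = 0.664, edgeR). With anestrus pool 2 left out it was 0.32, and with anestrus pool 1 left out it was 1.65. The lowest pool for ALDH1L1 was anestrus pool 2 and that for SLC1A2 was anestrus pool 1. ALDH1L2, the mitochondrial form of the enzyme, was at 32.04 and 44.1 CPM against 31.4 and 33.6, and its groups overlapped (0.22 ± 0.22).

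SOX9, the transcription factor of astrocyte identity, differed least of the 10 genes. The follicular pools held 119 and 115 CPM and the anestrus pools 99.8 and 107 CPM, 1.07-fold apart at the nearest. SOX9 had a log2 fold change of 0.17 ± 0.16 (95% interval -0.18 to 0.52, adjusted p = 0.852, edgeR). The upper end of this interval, 0.52, was below the lower end of that of GFAP, 0.68, and the difference between the genes was not tested. The pair was set side by side as the lowest member and the 1 called. The interval of GLUL, with an upper end of 0.64, also lay below, and those of the other members overlapped that of GFAP. GFAP over SOX9 was 40.5 and 42.1 in the follicular pools and 23.3 and 23.0 in anestrus. The related factors SOX8 and SOX10, known from oligodendrocytes, had log2 fold changes of 0.70 ± 0.24 and 0.70 ± 0.27, and SOX9 over SOX10 was lower in the follicular pools (4.35 and 5.58) than in anestrus (5.88 and 8.52).

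**Figure D2:**
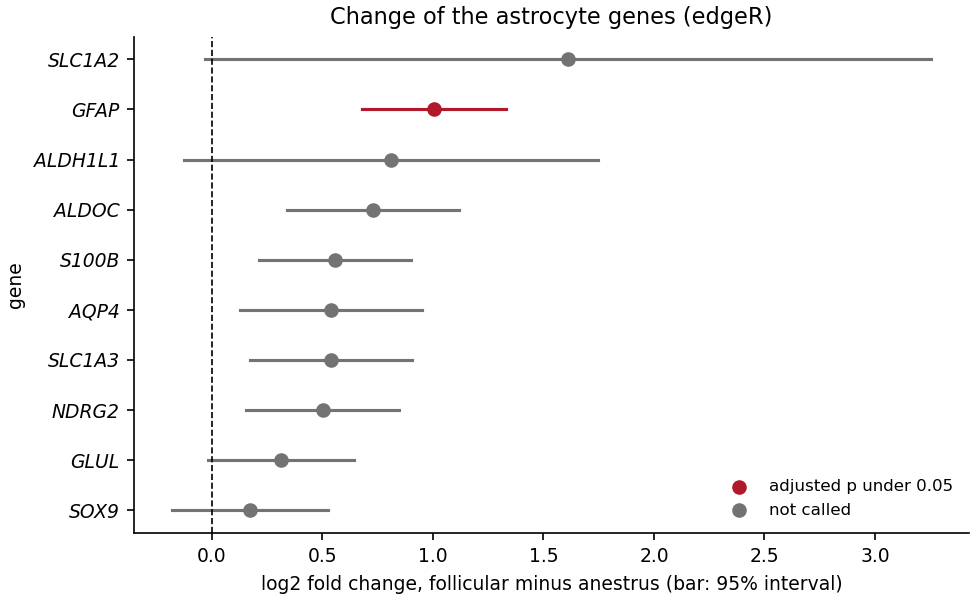
Log2 fold change, follicular minus anestrus, of the 10 astrocyte genes from edgeR, as points with 95% intervals; red marks an adjusted p under 0.05. GFAP is the 1 red point, at 1.01, the intervals of SLC1A2 and ALDH1L1 are the widest, and those of SLC1A2, ALDH1L1, GLUL and SOX9 include 0.

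Genes that control GFAP and astrocyte differentiation, SOX9 included, showed no common direction. Of 30 tested, 15 had a positive and 15 a negative log2 fold change, the median was -0.01 (0.04 to 0.13 with 1 pool left out), and 0 were called by edgeR, DESeq2 or limma-voom. At an unadjusted p under 0.05 there were 2 higher and 1 lower. STAT3, the transcription factor through which cytokines of the ciliary neurotrophic factor family induce GFAP, was at 189 and 164 CPM against 167 and 203 and was named after its values were seen. The 2 genes of smallest p were SOX8, given above, and NOTCH1, a receptor that favours glial fate, at 45.1 and 30.6 CPM against 24.1 and 22.8 (0.69 ± 0.24, adjusted p = 0.413, edgeR).

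Taking the members together, all 10 had a positive log2 fold change, as did 49.9% of all genes tested, and the median was 0.55. For each of the 10 both follicular pools were above both anestrus pools, against 17.6% of all genes tested, and 6 had an unadjusted p under 0.05 in this direction by edgeR, against 4.26%, and 0 in the other, against 4.29%. DESeq2 gave 7 with such a p and limma-voom 9. The 4.26% is that of edgeR, and the shares of all genes for these other tools are not given here. After adjustment over all genes, 1 of 10 was called higher, against 0.0119%. Of 2480 genes tested with a mean of at least 100 CPM, 1 was called higher. Of these, 166 had an unadjusted p under 0.05 as higher by edgeR, and 497 had both follicular pools above both anestrus pools. The members SLC1A2 and ALDH1L1 lie below that level. Without GFAP the median of the other 9 members was 0.54. The median of the 10 was 0.70 without follicular pool 1, 0.48 without follicular pool 2, and 0.59 and 0.57 without anestrus pools 1 and 2. The 10 genes are markers of 1 cell type and were read in the same 4 libraries, so they are not 10 independent observations.

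The members also differed in the order of the pools. AQP4, S100B and SLC1A3 were higher in follicular pool 2 than in pool 1, and ALDOC was higher in follicular pool 1. For GFAP, GLUL, SOX9 and NDRG2 the follicular pools differed by at most 1.03-fold. GFAP over each of the other 9 members was higher in both follicular pools than in both anestrus pools for 6 of them and overlapped for SLC1A2, ALDH1L1 and ALDOC, while over all other genes with counts in every pool it was higher for 87.3%. GFAP over S100B, for example, was 2.53 and 2.15 against 1.63 and 1.77, and GFAP over GLUL was 2.82 and 2.90 against 1.64 and 1.91. The 87.3% is also the share to set beside GFAP over VIM and over SNAP25. For ratios of other genes, such as SOX9 over SOX10, no share over all gene pairs was computed. With 2 pools against 2, an exact permutation test cannot give a 2-sided p below 0.333, so no test was made on any of the ratios.

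**Figure D3:**
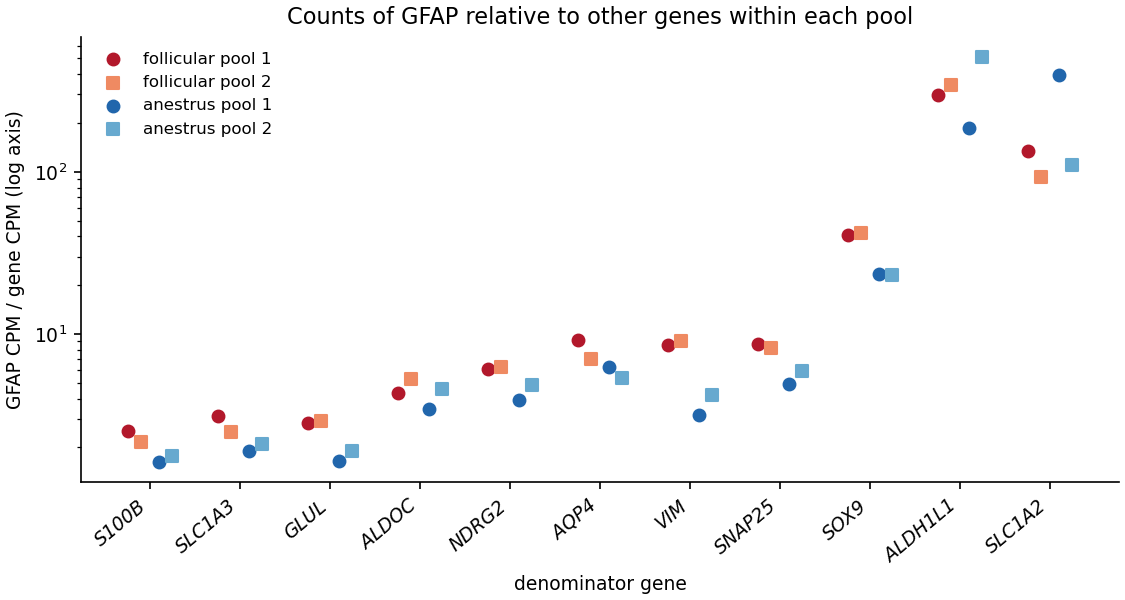
CPM of GFAP divided by that of another gene within the same pool (log axis, not corrected for gene length), for 9 astrocyte genes, VIM and the neuronal gene SNAP25; red and orange points are follicular pools and blue points anestrus pools. For SOX9 the follicular pools sit at 40.5 and 42.1 and the anestrus pools at 23.3 and 23.0, and for ALDOC, ALDH1L1 and SLC1A2 the groups overlap.

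Among 28 other genes known from astrocytes, 25 had a positive log2 fold change, with a median of 0.43. Of these, MLC1, HEPACAM, ATP1B2, SLC4A4 and KCNJ10 were already counted in the endfoot list above. Of the 28, the edgeR test called 0 higher and 2 lower, against 0.0119% and 0.191% of all genes tested. At an unadjusted p under 0.05 there were 10 higher and 2 lower, against 4.26% and 4.29%. DESeq2 also called SLC6A11 (adjusted p = 0.000972) and SLC14A1, a urea transporter (99.7 and 60.7 CPM against 45.1 and 29.0, adjusted p = 0.0142), as higher. By DESeq2, 0.257% of all genes tested were called higher. The 2 genes that fell were SLCO1C1, which carries thyroxine into the brain (31.1 and 32.8 CPM against 79.3 and 102), and DIO2, the deiodinase that activates it (115 and 105 CPM against 230.1 and 276). Both are also known from tanycytes, and SLCO1C1 from capillaries. Their log2 fold changes were -1.503 ± 0.19 and -1.20 ± 0.17 (adjusted p = 0.0154 and 0.0226, edgeR), of the opposite sign to all 10 members.

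The 21 tested genes linked to reactive astrocytes, a state of which GFAP itself is often used as a sign, were mostly of the opposite sign. Of these, 5 had a positive and 16 a negative log2 fold change, the median was -0.18, and 0 were called by edgeR, DESeq2 or limma-voom. At an unadjusted p under 0.05 there were 0 higher and 4 lower, against 4.29% of all genes tested that were lower at such a p. In 9 of them both follicular pools were below both anestrus pools, against 20.7% of all genes tested. CD44, the hyaluronan receptor, was at 40.2 and 34.6 CPM against 61.4 and 69.2 (-0.80 ± 0.19, adjusted p = 0.217, edgeR), and CP, ceruloplasmin, at 29.6 and 32.8 against 42.6 and 60.7 (-0.73 ± 0.22, adjusted p = 0.328, edgeR). Several of these genes are also made by meningeal, vascular or immune cells.

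Glial signals to GnRH neurons, 21 genes tested, gave a median of 0.01 (-0.05 to 0.11 with 1 pool left out), with 11 positive and 10 negative values and 0 called by edgeR, DESeq2 or limma-voom. At an unadjusted p under 0.05 there was 1 in each direction. NCAM1, the neural cell adhesion molecule, was at 401 and 436 CPM against 311 and 324 (0.40 ± 0.15). ST8SIA4, an enzyme that adds polysialic acid to it, had the opposite sign, at 47.3 and 53.7 CPM against 65.4 and 93.6 (-0.66 ± 0.21), and neither passed (adjusted p = 0.486 and 0.351, edgeR).

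**Figure D4:**
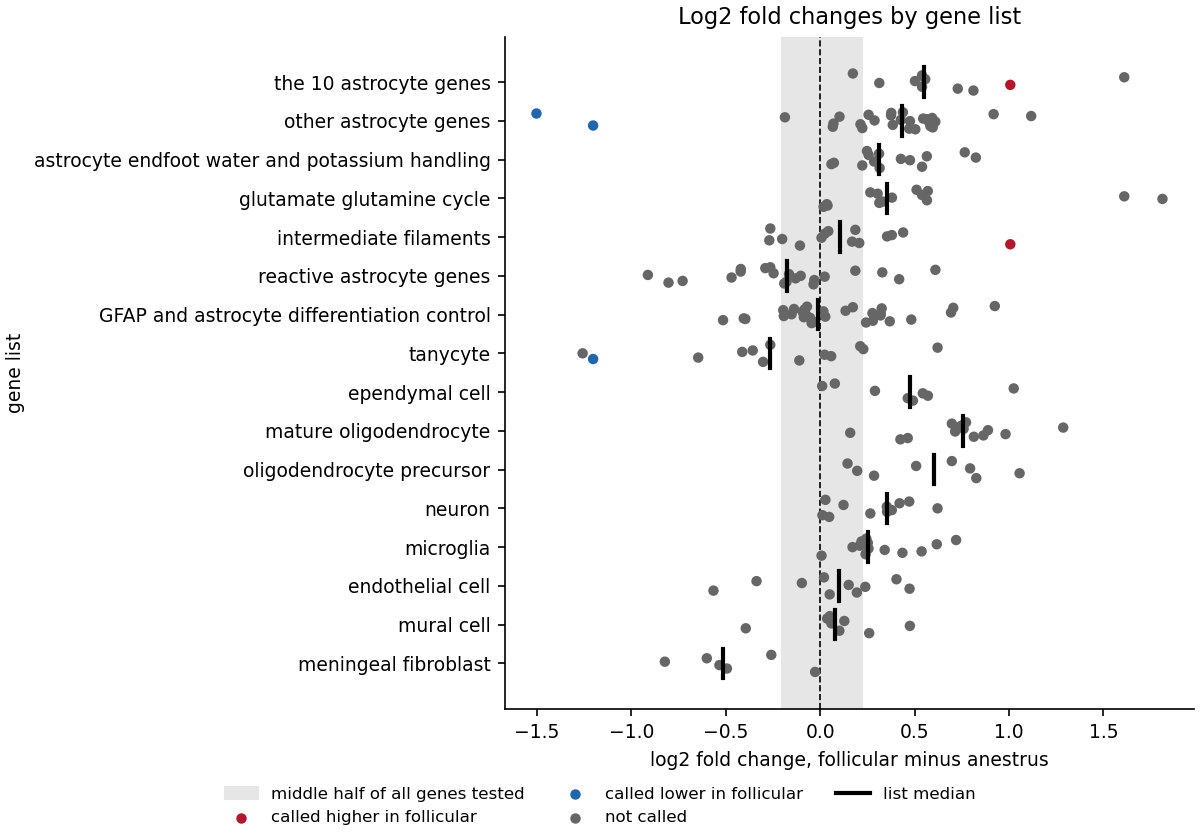
Log2 fold change, follicular minus anestrus, of each tested gene (point) in 16 lists, with the list median as a black bar and the interquartile range of all genes tested in grey; red and blue points passed an adjusted p under 0.05 as higher or lower. The 10 astrocyte genes have a median of 0.55, mature oligodendrocyte markers 0.76, neuron markers 0.35, reactive astrocyte genes -0.18 and meningeal fibroblast markers -0.51.

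Markers of several other cell types also had positive log2 fold changes, and their part in the results was not tested. Of 14 mature oligodendrocyte markers, all had a positive log2 fold change, with a median of 0.76, beside 0.55 for the astrocyte genes. That contrast depended on single pools: without follicular pool 2 the medians were 0.50 and 0.48, and without anestrus pool 2 they were 0.56 and 0.57. The edgeR test called 0 of the oligodendrocyte markers, and DESeq2 called MYRF and MOBP. At an unadjusted p under 0.05 (edgeR) there were 11, all higher, where 4.26% of all genes tested were. MYRF, the regulator of myelin genes, and OPALIN, a myelin membrane protein, had the smallest p, with log2 fold changes of 1.29 ± 0.33 and 0.74 ± 0.20 (adjusted p = 0.250 and 0.284, edgeR). Their summed level was 3748 CPM for follicular pool 1, 5049.6 CPM for follicular pool 2, 3179 CPM for anestrus pool 1 and 2069 CPM for anestrus pool 2, so follicular pool 2 was the highest and anestrus pool 2 the lowest. The summed level of the 10 astrocyte genes was 12534 and 13235 CPM against 8157 and 7973 CPM. GFAP over MBP, myelin basic protein, overlapped between the groups (5.48 and 4.64 against 2.72 and 7.86).

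All 8 oligodendrocyte precursor markers (median 0.60), all 11 neuron markers (0.35) and all 13 microglia markers (0.25) also had positive values. Of these, 0 were called by edgeR, and 4, 3 and 1 had an unadjusted p under 0.05. Over all genes tested, 4.26% were higher at such a p. The smallest p were those of BCAS1 (0.83 ± 0.20) and GPR17 (1.06 ± 0.32) among precursor markers, SYT1 (0.47 ± 0.16) and SYP (0.42 ± 0.15) of synaptic vesicles, and P2RY12 (0.62 ± 0.23) and CSF1R (0.34 ± 0.17) of microglia, and DESeq2 called BCAS1. The neuron median was 0.20 with either follicular pool 2 or anestrus pool 2 left out. The summed neuron markers were at 6413 and 7081 CPM in the follicular pools and 6146 and 5279 CPM in anestrus. GFAP over SNAP25, a protein of synaptic terminals, was 8.73 and 8.20 against 4.91 and 5.90. Ependymal markers (8 tested, all positive) had a median of 0.48 (0.31 without follicular pool 2), with 0 called by edgeR, DESeq2 or limma-voom and 0 at an unadjusted p under 0.05 by edgeR. CCDC153 (0.49 ± 0.23) and PIFO (1.02 ± 0.61) had the smallest p there.

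The remaining lists of cell type markers were mixed. The 13 tested tanycyte markers had a median of -0.26 (-0.01 without anestrus pool 1, -0.16 without anestrus pool 2), with 5 positive and 8 negative values and DIO2 as the 1 called. FRZB, an inhibitor of Wnt signals, was next (-0.65 ± 0.16, adjusted p = 0.242, edgeR). The summed level of these markers was 1366 and 1311 CPM against 1707 and 1587. The tanycyte genes RAX and GPR50, named beyond the genes called and the 2 of smallest p, had few reads. RAX was at 1.10 and 0.23 CPM against 2.87 and 0.56, so its groups overlapped, and GPR50 was at 0 in 3 of the 4 pools. The 6 meningeal fibroblast markers all had negative values (median -0.51, 0 called and 4 at an unadjusted p under 0.05 by edgeR, DCN called by DESeq2), DCN and LUM had the smallest p (-0.82 ± 0.16 and -0.60 ± 0.16), and their summed level was 838 and 968 CPM against 1417 and 1268. Of 10 endothelial markers 7 had positive values and of 8 mural markers 7. The endothelial median of 0.10 ranged from -0.10 (without anestrus pool 1) to 0.21 (without anestrus pool 2) with 1 pool left out, and turned negative in 2 of these 4 fits. The mural median of 0.08 was 0.19 without follicular pool 2 and 0.17 without anestrus pool 2. In both lists there were 0 called by edgeR, DESeq2 or limma-voom and 1 gene at an unadjusted p under 0.05, EMCN (-0.57 ± 0.21) and MCAM (0.47 ± 0.18). TEK (-0.34 ± 0.22) and KCNJ8 (-0.39 ± 0.30) came next. Over all genes tested, 4.26% were higher and 4.29% lower at an unadjusted p under 0.05 (edgeR). Choroid plexus markers summed to 378 CPM in follicular pool 1 and to 130.4, 164 and 149 CPM in the other pools. Of 8 tested, 5 had positive values, 0 were called by edgeR, DESeq2 or limma-voom, 1 had an unadjusted p under 0.05 (CLIC6, -0.68 ± 0.25, with SLC4A5 next at 1.34 ± 0.65), and the median of 0.44 was 0.02 without follicular pool 1.

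The genes whose pattern over the 4 pools was most like that of GFAP were ADD2, SLC6A11, MGAT3, NCAN and SLIT1. They were the nearest of 4850 named genes with a mean of at least 50 CPM, by Euclidean distance between log2 CPM values centred on each gene's mean (0.20 for ADD2 to 0.28 for SLIT1). SLC6A11 encodes GAT3, the carrier by which astrocytes take up GABA, and was at 161 and 142 CPM against 83.6 and 76.6, with a log2 fold change of 0.92 ± 0.17 (adjusted p = 0.0660, edgeR). NCAN, neurocan of the extracellular matrix around neurons, was at 110 and 115 CPM against 66.9 and 66.6, and ADD2, an adducin of the membrane skeleton in neurons, at 158 and 148 against 73.3 and 90.9. MGAT3, a glycosyltransferase, was at 72.4 and 64.1 CPM against 38.9 and 33.2, and SLIT1, an axon guidance protein, at 155 and 125 against 77.0 and 74.95. None of the 5 was called by edgeR. Of the 9 other astrocyte genes, ALDOC came nearest to GFAP in this order, at place 37, and S100B followed at place 69. A likeness over 4 pools is a description, and many genes with a higher follicular level share it.

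**Figure D5:**
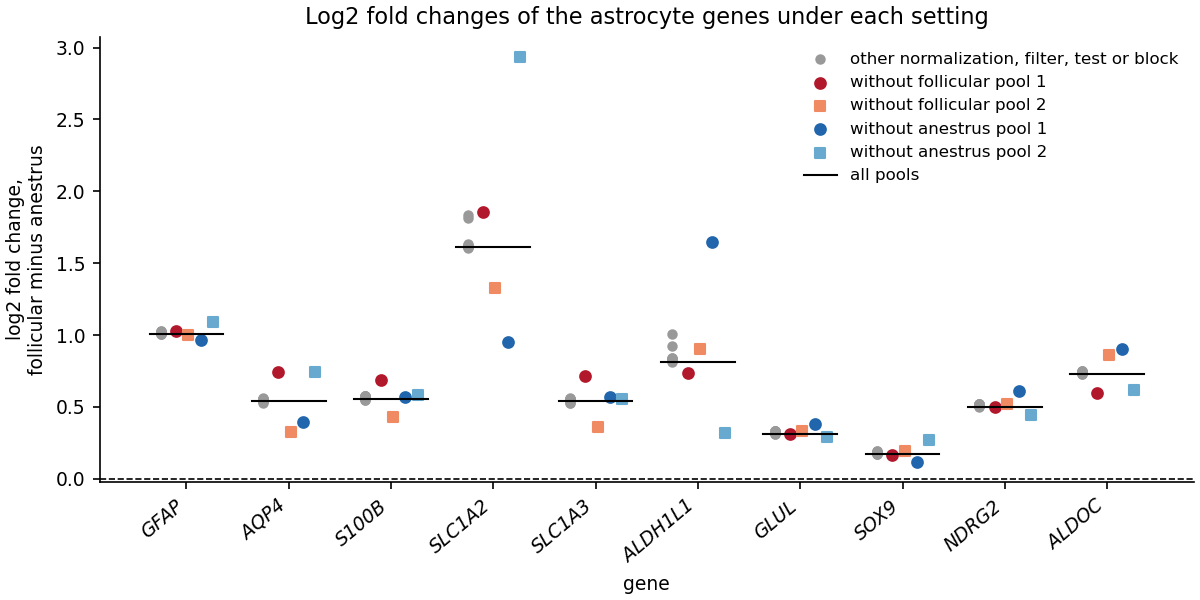
Log2 fold change, follicular minus anestrus, of the 10 astrocyte genes with all pools (black line), with each pool left out (coloured points) and with other normalization, filter, test or replicate block (grey points). GFAP stays between 0.96 and 1.09, while SLC1A2 ranges from 0.95 to 2.94 and ALDH1L1 from 0.32 to 1.65, and no value falls below 0.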

How the data were processed

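TriReagent was used to extract RNA, and a stranded mRNA kit for the libraries, per the labels' protocols. What the authors deposited are whole-number read counts for each gene, not normalized. The submitters' processing notes name featureCounts 2.0.0 among the tools, beside TopHat2 2.1.1 with Bowtie2 2.3.5.1, FastQC, SAMtools 1.9 and bcl2fastq 2.20. The sources used here do not give the genome build, annotation, strand setting or treatment of multi-mapping reads. No coordinates and no levels per gene length are therefore given. Pools are numbered as in the library names, which the table's columns carry, and the sample titles number the anestrus pools in the opposite order.

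Genes were kept by edgeR's filterByExpr (minimum count 10, minimum total 15). After TMM scaling, the test was that of edgeR 4.0.16, run in R 4.3.3 (glmQLFit with robust estimation, glmQLFTest, 1 mean per group, 2 residual degrees of freedom). Fold-change intervals are 95% intervals per gene. The steps were tested on simulated data with 1 spread shared by all genes. The checks set there were on unchanged genes and on differences larger than that of GFAP. Differences of about the size seen in GFAP were simulated too, but no check was set for them. The smaller ones were not simulated. DESeq2 1.42.0 and limma 3.58.1 (voom) were alternatives, as were other scalings and filters, a replicate block and leaving out each pool.

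The 27 lists, of which 1 is the 10 genes, held 321 entries with 284 distinct symbols. Of the symbols, 278 matched a row and 6 did not. Some genes are in more than 1 list, so the lists are not separate observations. They were chosen with earlier results of these data known. The libraries held 14553821 to 25292678 counted reads. LDHA was matched through a RefSeq synonym. Named were all members, their gene families, in each pathway and cell type list the genes called and the 2 of smallest p, and the 5 genes nearest to GFAP; some genes of these lists are not reported here.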

Additional observations from a re-analysis of the deposited data

How the results depend on the processing

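GFAP kept its direction in 13 of 13 other settings and its call in 12, and the 10 members had positive log2 fold changes in each of these settings. In the settings that kept all pools, 1 member was called higher, and 2 without a count filter and with the DESeq2 Wald test (GFAP and ALDOC). Over all genes tested, 0.0119% were called higher in the edgeR test above, 0.583% without a count filter and 0.257% with DESeq2. Without follicular pool 1 there were 0, without anestrus pool 1 there were 5 (GFAP, ALDOC, ALDH1L1, NDRG2 and SLC1A2) and without anestrus pool 2 there were 4 (GFAP, ALDOC, AQP4 and SLC1A2). No member was called lower in any setting. Over all genes, 34 were called, 300 without a count filter, 143 with the DESeq2 Wald test, and 4 to 810 with 1 pool left out; the cause was not tested. Such a fit assumes that the lone pool varies like those of the other group, and it drops the spread between the pools of its own group. With the library number as a replicate block, 90 genes were called and GFAP was still the 1 member called (adjusted p = 0.0351, edgeR). The number ties no goats together; deviations of same-numbered pools correlated at r = 0.26 across genes, from a single pair of differences. Depth did not limit GFAP, whereas SLC1A2 and ALDH1L1 had 84 and 87 reads in their lowest pools.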
